A study of Mus musculus with 18 samples.

Results

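The 8 genes described here encode cardiac receptors for noradrenaline, adrenaline and acetylcholine and proteins that damp signalling from such receptors. They are the adrenergic receptors Adrb1, Adra1a and Adra1b, the muscarinic receptor Chrm2, the receptor kinase Grk5, and the regulators of G protein signalling Rgs2, Rgs4 and Rgs5. They were listed by symbol, with earlier results of these data known when they were chosen, and are 8 of 24419 symbols in the expression table. All 8 reached an FPKM (fragments per kilobase of transcript, scaled to the mapped fragments of the library) of 1 in at least 1 mouse and so were among the 13333 genes tested.

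RNA-seq was performed on left ventricle tissue of 18 male C57BL/6 mice, 8 weeks old. Acute myocardial infarction (AMI) was induced by tying off the proximal left anterior descending coronary artery, and infarcted myocardium was taken at 10 min, 1 h, 6 h, 24 h or 72 h. The controls were sham mice, and each of the 6 groups held 3 mice. The paper states that the mice were anesthetized with injected sodium pentobarbital. No group of this series is labelled with a transgene or a drug treatment. The sources used here do not state that the sham mice were sampled at more than a single time. Time after the operation and ligation therefore cannot be told apart. The 5 comparisons with sham share the same 3 sham mice.

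The receptors described here are coupled to G proteins, which dissociate into an alpha subunit and a beta-gamma pair once the receptor binds its ligand. In the ventricle, the beta 1 receptor raises cyclic AMP through Gs and so increases rate and force, the alpha 1 receptors activate phospholipase C through Gq, and the M2 muscarinic receptor opposes the beta 1 receptor through Gi and opens a potassium channel through beta-gamma. Receptor kinases phosphorylate occupied receptors so that arrestins bind and end signalling, while RGS proteins speed GTP hydrolysis by the alpha subunit and so shorten the signal.

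The sequences upstream of 5 members are shown because these genes had different time courses: Rgs2 rose at 10 min and 72 h, Grk5 rose from 6 h onwards, Rgs5 fell at 24 h and 72 h, Adrb1 fell at 72 h, and Rgs4, the neighbour of Rgs5, was called at no time point. Each run is the 250 bases before the start of the gene in RefSeq (GRCm38.p6), written 5′ to 3′ on the strand of the gene, and capitals mark TGACG or its reverse complement, the core of the cyclic AMP response element that the transcription factor CREB binds.
Rgs2: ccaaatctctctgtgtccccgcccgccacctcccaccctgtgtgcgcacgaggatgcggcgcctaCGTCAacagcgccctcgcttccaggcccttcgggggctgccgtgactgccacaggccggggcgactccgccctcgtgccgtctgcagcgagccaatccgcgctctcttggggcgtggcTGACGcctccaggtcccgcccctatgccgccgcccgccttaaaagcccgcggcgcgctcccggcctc
Rgs4: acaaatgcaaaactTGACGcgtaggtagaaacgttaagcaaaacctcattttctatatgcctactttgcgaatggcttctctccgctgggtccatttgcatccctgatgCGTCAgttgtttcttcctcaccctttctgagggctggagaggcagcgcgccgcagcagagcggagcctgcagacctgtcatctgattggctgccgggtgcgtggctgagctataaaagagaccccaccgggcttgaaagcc
Rgs5: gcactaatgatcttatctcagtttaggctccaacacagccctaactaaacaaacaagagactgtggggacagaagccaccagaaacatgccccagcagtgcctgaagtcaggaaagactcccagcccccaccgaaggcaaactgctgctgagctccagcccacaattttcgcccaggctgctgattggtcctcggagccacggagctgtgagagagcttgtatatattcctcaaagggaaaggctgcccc
Adrb1: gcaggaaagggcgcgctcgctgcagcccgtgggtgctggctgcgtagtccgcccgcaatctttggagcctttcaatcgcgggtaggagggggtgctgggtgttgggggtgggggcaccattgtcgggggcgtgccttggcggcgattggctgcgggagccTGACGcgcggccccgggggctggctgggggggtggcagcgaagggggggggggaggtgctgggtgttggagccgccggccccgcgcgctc
Grk5: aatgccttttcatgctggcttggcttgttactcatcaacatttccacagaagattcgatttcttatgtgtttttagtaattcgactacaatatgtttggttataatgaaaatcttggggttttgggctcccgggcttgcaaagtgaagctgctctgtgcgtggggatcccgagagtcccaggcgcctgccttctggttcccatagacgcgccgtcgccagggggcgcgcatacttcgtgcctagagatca
They lie at chr1:144004150-144004399 (minus strand), chr1:169747643-169747892 (minus strand), chr1:169655251-169655500 (plus strand), chr19:56721867-56722116 (plus strand) and chr19:60889499-60889748 (plus strand). The upstream run of Rgs2 held 2 matches to the core, that of Rgs4 held 2 and that of Adrb1 held 1, whereas those of Rgs5 and Grk5 held 0, searched on both strands. The core was found in 17.8% of 32851 promoter windows of the same length, and the full element TGACGTCA, which contains it, in 1.55%. None of the runs shown held the full element. The GC box GGGCGG had 4 matches upstream of Rgs2 and 1 upstream of Adrb1, against 32.7% of all windows with at least 1. The TATA box TATAAA had 1 match upstream of Rgs4, against 12.4% of windows. RefSeq windows matched 7 of the 8 members. The windows of Chrm2 and both windows of Adra1b, which are not shown, held 0 matches to the core. The GC box had 1 match upstream of Chrm2, and 0 and 1 in the windows of Adra1b. These matches are letters in a window, and no binding was measured.

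Libraries were compared before the members were examined. FPKM summed to between 542418 and 600467 per mouse, and the depth implied by the lowest values ran from 0.815 to 1.32 of that of the first sham mouse. The first 6 h mouse stood apart by its atrial markers, which summed to 96.6 FPKM against at most 3.05 in any other mouse, with Myl4 at 63.0, Myl7 at 18.7 and Sln at 12.5 FPKM. The calls of members at 6 h and the largest changes of the lists are therefore given with and without it. Most other 6 h values and counts include it. The 8 cardiomyocyte markers, which atrial and ventricular muscle share, were present in all mice. The median log2 fold change over all genes was 0.13 for 24 h and 0.29 for 72 h against sham. Scaling each mouse by the median of ratios brought these medians to 0.02 and 0.04, and quantile normalization to -0.04 and -0.10. A gene is called rising or falling here at an adjusted p under 0.05 on the deposited scale, and it is said where another scaling changed a call of a member. Fold changes are on the log2(FPKM + 1) scale and understate those of low genes.

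Expression of the members in sham ventricle covered a wide range. Rgs5, an RGS protein of pericytes and vascular smooth muscle, was the highest at 96.2 ± 8.66 FPKM (SD, n = 3), followed by Rgs2 at 46.7 ± 6.49 and Adra1b at 28.5 ± 0.718. Adrb1 at 15.3 ± 2.01 and Chrm2 at 13.8 ± 1.93 had overlapping values in the sham mice. Below them lay Rgs4 at 8.89 ± 0.875, Grk5 at 7.22 ± 0.797 and Adra1a at 4.85 ± 1.14, and all neighbours in this order other than Adrb1 and Chrm2 did not overlap. By 72 h the order had become Rgs2, Rgs5, Grk5, Adra1b, Chrm2, Rgs4, Adrb1 and Adra1a, where Adra1b overlapped Chrm2 and Rgs4 overlapped Adrb1. Grk5 thus stood seventh of the 8 members in sham mice and above every receptor at 72 h.

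**Figure D1:**
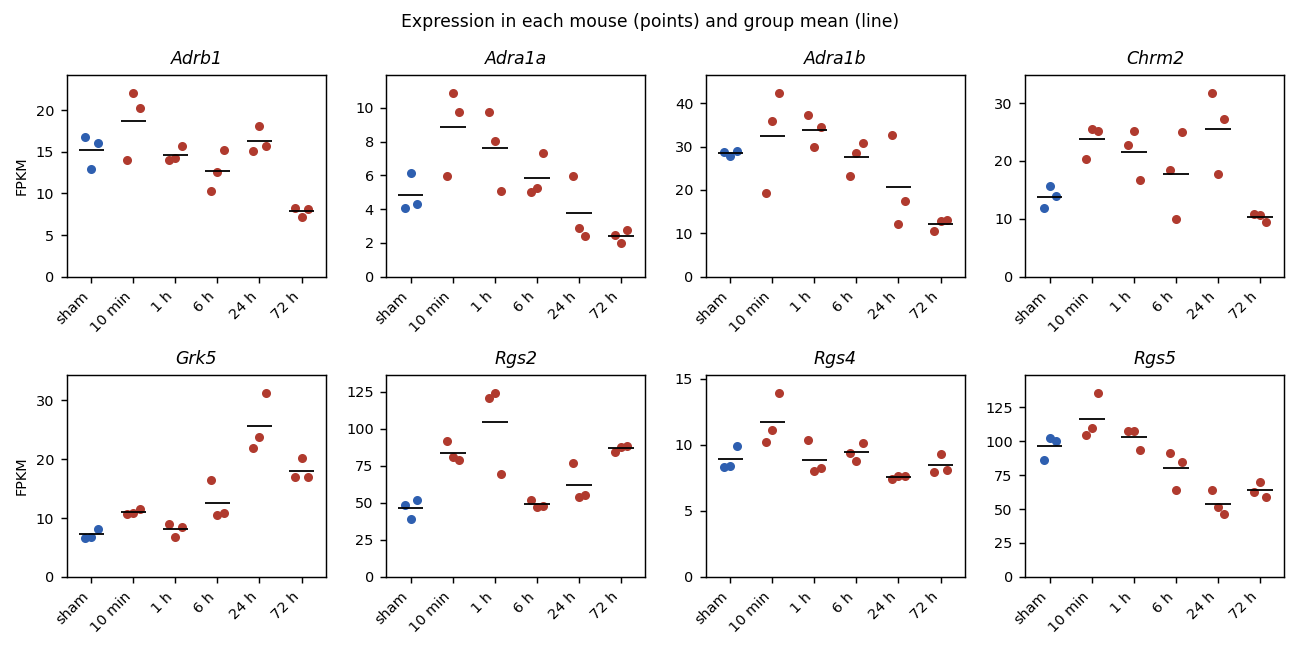
FPKM of the 8 members (vertical axis) in each mouse (points, 3 per group) for sham and 5 times after ligation (horizontal axis), with the group mean as a line. Adrb1, Adra1a and Adra1b were below all sham mice in every 72 h mouse, and Grk5 was above all sham mice at 24 h and 72 h.

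Adrb1 (chr19:56722199-56733113, plus strand, mm10, GENCODE M21) encodes the main beta receptor of the ventricle. It measured 16.7, 13.0 and 16.1 FPKM in the sham mice, 14.0, 22.1 and 20.2 at 10 min and 14.0, 14.2 and 15.6 at 1 h. At the later times it had 10.3, 12.5 and 15.2 FPKM (6 h), 15.1, 18.0 and 15.7 (24 h) and 8.28, 7.19 and 8.14 (72 h). Only the 72 h mice lay outside the sham range as a group, all 3 of them below it. Adrb1 fell by 48.5% at 72 h (log2 fold change -0.87, SE 0.10, limma adjusted p = 7.18e-05) and was called at no earlier time point. The step was late, since Adrb1 at 72 h was also below 24 h (-0.96, SE 0.11, adjusted p = 0.0006).

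Adra1b (chr11:43774606-43901210, minus strand) encodes the alpha 1B receptor and had the largest fall of the members at 72 h against sham. Its FPKM were 28.8, 27.7 and 29.1 in sham mice, 19.4, 35.9 and 42.4 at 10 min and 37.2, 29.8 and 34.4 at 1 h. The mice sampled later had 23.2, 28.6 and 30.7 FPKM (6 h), 32.6, 12.1 and 17.5 (24 h) and 10.6, 12.9 and 13.1 (72 h). The sham mice were close together, the 10 min and 24 h mice were spread on both sides of them, and the 72 h mice were all lower. Adra1b fell by 57.2% at 72 h (-1.17, SE 0.09, adjusted p = 3.6e-06). At 24 h it was not called (-0.55, SE 0.31, adjusted p = 0.19). Without the first 24 h mouse, the highest of its group, it was (-0.92, adjusted p = 0.00859). With another mouse left out it was not called, with an adjusted p of up to 0.464.

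Adra1a (chr14:66635251-66771168, plus strand), the alpha 1A receptor, was the lowest member. It had 4.07, 6.16 and 4.31 FPKM in sham mice, 5.97, 10.9 and 9.73 at 10 min and 9.74, 8.01 and 5.10 at 1 h. In the later groups it measured 5.01, 5.24 and 7.31 FPKM (6 h), 5.98, 2.87 and 2.43 (24 h) and 2.46, 1.97 and 2.75 (72 h). The first 24 h mouse, which also had the highest Adra1b of its group, was within the sham range while the other two were below it. Adra1a fell by 50.6% at 72 h (-0.77, SE 0.15, adjusted p = 0.00119), and its mean at 10 min, 8.86 ± 2.57 FPKM, overlapped sham and was not called (0.73, SE 0.21, adjusted p = 0.199). Without the first 24 h mouse, the highest of its group, it was called lower at 24 h (-0.66, adjusted p = 0.0303). With another mouse left out it was not called at 24 h, with an adjusted p of up to 0.682.

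The sum of the alpha 1 receptors was lower at 72 h than in sham mice. Adra1b made up 81.4% ± 2.48 of the summed FPKM of the alpha 1 receptors in sham mice and 79.7% ± 2.91 at 72 h, and the ranges overlapped. At 10 min the share of Adra1a, 18.3% to 22.6%, lay above its share of 11.8% to 17.5% in sham mice. The sum was 35.0 ± 0.431 FPKM in sham mice and 15.3 ± 1.35 at 72 h. Adra1d, the alpha 1D receptor of vascular smooth muscle, was low throughout and fell at 6 h (-0.54, SE 0.11, adjusted p = 0.0121) and at 72 h (-0.64, SE 0.10, adjusted p = 0.000369). Adra2a, Adra2b and Adra2c, the alpha 2 receptors, were below 1 FPKM in every mouse and were not tested.

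Chrm2 (chr6:36388084-36528414, plus strand) encodes the M2 muscarinic receptor, through which the vagus slows the heart. It had 11.8, 15.6 and 14.0 FPKM in sham mice, 20.4, 25.5 and 25.2 at 10 min and 22.7, 25.2 and 16.7 at 1 h. Later values were 18.4, 9.93 and 25.0 FPKM (6 h), 31.8, 17.8 and 27.2 (24 h) and 10.8, 10.7 and 9.49 (72 h). All mice at 10 min, 1 h and 24 h were above all sham mice, the 6 h mice lay on both sides, and the 72 h mice were below. At 24 h Chrm2 rose 1.85-fold (0.82, SE 0.21, adjusted p = 0.025). This call was lost under median-of-ratios scaling (adjusted p = 0.0514), under quantile normalization (0.0571) and without any of the sham mice in turn (0.0592 to 0.0917). At 10 min the difference was of similar size but not called (0.74, SE 0.12, adjusted p = 0.0614). It was called under quantile normalization (0.72, adjusted p = 0.0489) and with the filter on the mean FPKM (adjusted p = 0.0409). It was also called without the first 10 min mouse, the lowest of its group (adjusted p = 0.0427). Leaving out the third 1 h mouse or the second 6 h mouse, again the lowest of their groups, gave calls at those times (adjusted p = 0.0391 and 0.0384). With other mice left out there was no call, and the adjusted p reached 0.195 at 10 min, 0.526 at 1 h and 0.97 at 6 h. At 72 h Chrm2 fell by 24.9% (-0.38, SE 0.11, adjusted p = 0.0102), and in a fit over all 18 mice this fall was not called (adjusted p = 0.196).

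From 24 h to 72 h Chrm2 had the largest difference of the 8 members, from 25.6 ± 7.14 to 10.4 ± 0.752 FPKM (-1.19, SE 0.20, adjusted p = 0.00307). Chrm2 supplied 98.0% of the summed muscarinic receptor FPKM in sham mice and 98.4% at 72 h, and Chrm1, Chrm3, Chrm4 and Chrm5 were all too low to be tested. The ratio of Chrm2 to Adrb1 in the same mouse was 0.704, 1.20 and 0.868 in sham mice and 1.31, 1.49 and 1.17 at 72 h, ranges that overlapped. Chrm2 shares 221 exon bases with the antisense lincRNA 9330158H04Rik, which reached at most 4.62 FPKM, and the counting was not stated to use strand, so reads from the shared bases cannot be told apart.

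Grk5 (chr19:60889749-61095968, plus strand) encodes a receptor kinase of cardiac muscle that phosphorylates occupied beta receptors. Its FPKM were 6.66, 6.87 and 8.13 in sham mice, 10.6, 10.9 and 11.5 at 10 min and 9.08, 6.76 and 8.45 at 1 h. At the later times it had 16.5, 10.5 and 10.8 FPKM (6 h), 21.9, 23.9 and 31.2 (24 h) and 16.9, 20.2 and 17.0 (72 h). Every mouse at 10 min, 6 h, 24 h and 72 h was above every sham mouse, and the 1 h mice overlapped them. Grk5 rose 1.75-fold at 6 h (0.70, SE 0.17, adjusted p = 0.0237) and 3.56-fold at 24 h (1.69, SE 0.15, adjusted p = 0.00159). By 72 h it was 2.5-fold above sham (1.21, SE 0.10, adjusted p = 6.98e-06).

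The highest Grk5 level at 6 h was that of the first mouse, the mouse with atrial markers, and without it the difference at 6 h was 0.51 (SE 0.11, adjusted p = 0.0196). The 6 h call was lost without any of the sham mice in turn (adjusted p = 0.0527 to 0.0859). At 10 min Grk5 was not called (0.55, SE 0.09, adjusted p = 0.059) but was under median-of-ratios scaling (0.54, adjusted p = 0.0456) and quantile normalization (0.52, adjusted p = 0.042). Between time points, Grk5 rose from 6 h to 24 h (0.98, SE 0.21, adjusted p = 0.0283) and fell from 24 h to 72 h (-0.48, SE 0.15, adjusted p = 0.0371). The first of these calls was lost under median-of-ratios scaling (adjusted p = 0.07) and quantile normalization (0.0578), and the second when each mouse was scaled to the same FPKM sum (0.0729). From 1 h to 6 h Grk5 was called under quantile normalization alone of the scalings (0.58, adjusted p = 0.0493).

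Neutrophil markers were uneven between the mice at these times. All 5 rose at 6 h (median log2 fold change 3.6) and 4 of 5 rose at 24 h (median 3.33). Their sum was at most 4.99 FPKM in sham mice, and it was 996.6 FPKM in the first 6 h mouse, which had the highest Grk5 of its group, against 115.7 and 374.7 in the other two. At 24 h it was 964.6 FPKM in the third mouse, again the one with the highest Grk5 of its group. The other 24 h mice had the reverse order, with a sum of 209.4 where Grk5 was 21.9 FPKM and 42.6 where it was 23.9. At 72 h the neutrophil sums were 49.6 to 60.2 FPKM, with Grk5 at 16.9 to 20.2. The sums of the 6 macrophage markers followed the order of Grk5 at 6 h and 24 h. At 6 h they were 153.2, 225.0 and 240.5 FPKM where Grk5 was 10.5, 10.8 and 16.5. At 24 h they were 493.4, 536.7 and 666.2 FPKM where Grk5 was 21.9, 23.9 and 31.2. The pan-leukocyte sums had the order of the neutrophil sums at both times. At 72 h the macrophage sum was lowest, at 3483 FPKM, in the mouse with the highest Grk5. The part of these cells in the Grk5 levels was not tested.

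Grk5 gained share within its family. Of the summed FPKM of the 5 receptor kinases, Grk5 held 18.1% ± 1.31 in sham mice, 23.9% ± 1.41 at 10 min and 19.1% ± 2.20 at 1 h. It held 26.2% ± 4.09 at 6 h, 35.8% ± 1.59 at 24 h and 24.4% ± 2.49 at 72 h. The 10 min shares of 22.8% to 25.5% and the 24 h shares of 34.6% to 37.6% lay above the sham shares of 17.3% to 19.6%. The 1 h shares overlapped those of the sham mice. Adrbk1, the older symbol of Grk2, which encodes the most abundant receptor kinase here, had 23.5 FPKM on average in sham mice, 34.6 at 24 h and 41.1 at 72 h, and rose at both times (0.53, adjusted p = 0.0168, and 0.78, adjusted p = 1.08e-05). The ratio of Grk5 to Adrb1 in the same mouse was 0.398, 0.530 and 0.505 in sham mice and 2.05, 2.81 and 2.08 at 72 h, so that kinase and receptor changed places in the order.

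**Figure D2:**
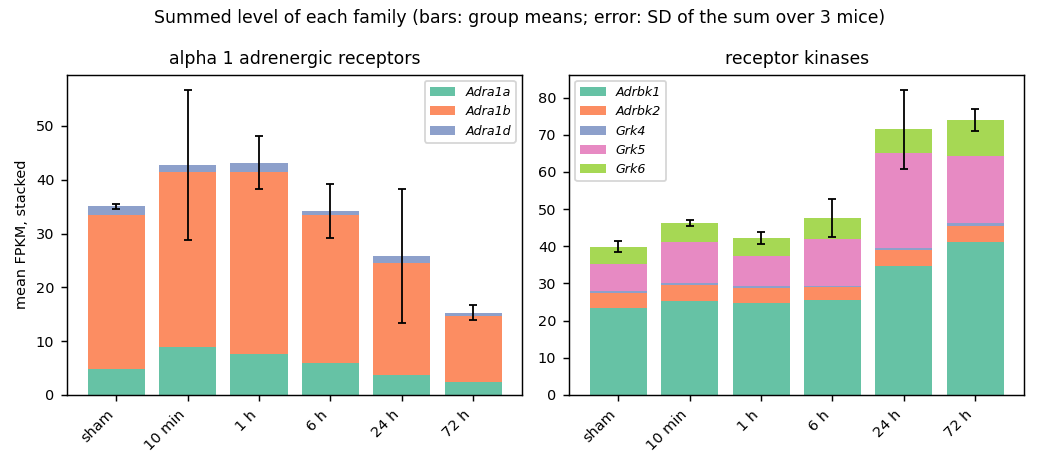
Mean FPKM of each gene, stacked within the alpha 1 adrenergic receptors and the receptor kinases (vertical axis), for sham and 5 times after ligation (horizontal axis), with the SD of the summed level over 3 mice as the error bar. The alpha 1 sum was 35.0 FPKM in sham mice and 15.3 at 72 h, while the kinase sum was 39.8 and 73.9.

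Rgs2 (chr1:143999338-144004161, minus strand) encodes an RGS protein that acts preferentially on Gq and is known as an early response gene in many cells. It had 48.9, 39.4 and 51.8 FPKM in sham mice, 91.7, 80.8 and 79.3 at 10 min and 121, 124 and 69.7 at 1 h. The mice sampled later had 51.7, 47.3 and 47.8 FPKM (6 h), 77.2, 53.8 and 55.7 (24 h) and 84.6, 87.6 and 88.5 (72 h). The levels were above all sham mice at 10 min, 1 h, 24 h and 72 h and overlapped them at 6 h, so that high values came both early and late. Rgs2 rose 1.8-fold at 10 min (0.84, SE 0.11, adjusted p = 0.0369) and 1.86-fold at 72 h (0.89, SE 0.10, adjusted p = 4.59e-05).

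The call at 10 min was lost when any mouse of the comparison was left out (adjusted p = 0.0519 to 0.126), although the log2 fold change stayed between 0.72 and 0.92. At 1 h the mean was the highest, 105 ± 30.6 FPKM, but the third mouse stood below the other two and the difference was not called (1.11, SE 0.22, adjusted p = 0.0976). Without that mouse it was (1.38, adjusted p = 0.0029). With another mouse left out it was not called, with an adjusted p of up to 0.285. Rgs2 fell from 1 h to 6 h (-1.04, SE 0.21, adjusted p = 0.0165), was 62.2 ± 13 FPKM at 24 h, and rose from 24 h to 72 h (0.49, SE 0.15, adjusted p = 0.0304), a call that was lost under median-of-ratios scaling (0.33, adjusted p = 0.142).

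Rgs5 (chr1:169655501-169695813, plus strand) had 86.2, 102 and 100 FPKM in sham mice, 104, 109 and 135 at 10 min and 107, 107 and 93.3 at 1 h. In the later groups it measured 91.2, 64.2 and 84.3 FPKM (6 h), 63.7, 51.3 and 46.1 (24 h) and 62.3, 69.7 and 59.0 (72 h). All 24 h and 72 h mice were below all sham mice. Rgs5 fell by 44.2% at 24 h (-0.84, SE 0.14, adjusted p = 0.00683) and by 33.8% at 72 h (-0.59, SE 0.09, adjusted p = 0.00035). It fell earlier than Adrb1, which was called only at 72 h, but the difference in timing between these genes was not tested.

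Rgs4 (chr1:169741477-169747642, minus strand), which encodes an RGS protein acting on Gi and Gq, is the neighbour of Rgs5, with 45.663 kb and 0 annotated genes between their facing 3′ ends. It had 8.35, 8.43 and 9.90 FPKM in sham mice, 10.2, 11.1 and 13.9 at 10 min and 10.3, 7.98 and 8.26 at 1 h. Later values were 9.35, 8.78 and 10.2 FPKM (6 h), 7.43, 7.63 and 7.61 (24 h) and 7.97, 9.27 and 8.12 (72 h). The 10 min mice were above and the 24 h mice below the sham mice, by margins that were not called (0.36, adjusted p = 0.25, and -0.21, adjusted p = 0.131). At 72 h the values overlapped sham (-0.06, SE 0.09, adjusted p = 0.533). This depends on the scale, since Rgs4 was called lower at 72 h under median-of-ratios scaling (-0.34, adjusted p = 0.00463) and quantile normalization (-0.50, adjusted p = 0.000791), and likewise at 24 h (-0.34, adjusted p = 0.0272, and -0.40, adjusted p = 0.0185). From 6 h to 24 h Rgs4 was not called (-0.28, adjusted p = 0.122) but was lower under the same scalings (-0.51 in both, adjusted p = 0.0403 and 0.0435). Rgs5 stood at 10.8 ± 1.09 times the level of Rgs4 in sham mice and 7.54 ± 0.274 times at 72 h, a ratio within each mouse that a scale factor per mouse leaves unchanged.

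Counted over the 8 members, 1 rose and 0 fell at 10 min, where 0.248% of all genes tested rose and 0.0978% fell. At an unadjusted p under 0.05 there were 6 members at that time, against 14.7% of all genes. At 1 h 0 members were called by limma in either direction, against 0.669% and 0.0526% of all genes called higher and lower, and 4 members had an unadjusted p under 0.05, against 12.6% of all genes. At 6 h 1 rose and 0 fell, against 11.6% and 16.8% of all genes. At 24 h 2 rose and 1 fell, against 26.2% and 11.4%, and with median-of-ratios scaling 1 rose and 2 fell, against 19% and 17.4%. At 72 h 2 rose and 5 fell, against 53.1% and 24.2%. On this scale more members fell than rose while more genes overall rose than fell, and the median log2 fold change was -0.48 over the members and 0.29 over all genes. With median-of-ratios scaling 2 members rose and 6 fell, against 39.3% and 35.7% of all genes, and with quantile normalization the member counts were equal to these, against 32.9% and 42.8%. On the deposited scale an unadjusted p under 0.05 was more common among all genes later than at 10 min or 1 h. It was found for 42.6% of all genes and for 1 member when 6 h was compared with sham. For 24 h the share was 50.3%, with 4 members, and for 72 h it was 78.8%, with 7 members. Between successive times, 0 rose and 1 fell from 1 h to 6 h (9.32% and 11.2% of all genes), 1 rose and 0 fell from 6 h to 24 h (12.5% and 1.94%, or 0 and 1 with median-of-ratios scaling, against 3.02% and 2.76%), and 1 rose and 3 fell from 24 h to 72 h (29.7% and 13.5%). Without the first 6 h mouse, Grk5 was still called at 6 h against sham and from 6 h to 24 h (1.18, adjusted p = 0.0418), and Rgs2 from 1 h to 6 h (-1.08, adjusted p = 0.0345).

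**Figure D3:**
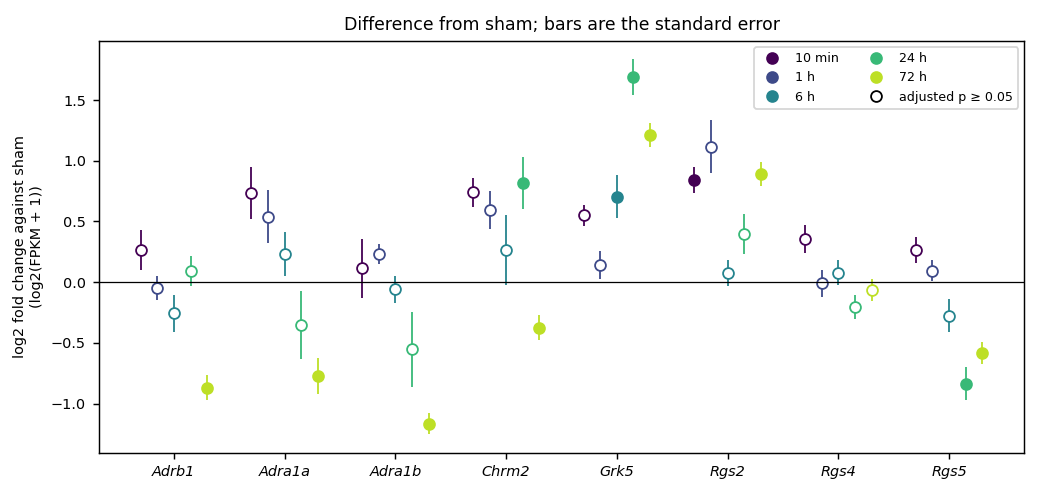
Log2 fold change against sham (vertical axis, log2(FPKM + 1)) of each member (horizontal axis) at 5 times, with the standard error as the bar; filled points had an adjusted p under 0.05. At 72 h 5 members fell and 2 rose, and Rgs4 was at -0.06.

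The tissue itself changed over the same period. All 8 cardiomyocyte markers fell at 72 h (median log2 fold change -1.53), and 5 of 8 fell at 24 h (median -0.66). Their summed level ran from 44790 to 47003 FPKM in sham mice and from 18024 to 21934 at 72 h, with 0 of 8 at zero. Of 7 pericyte markers, 5 fell at 6 h, 3 fell at 24 h, and 4 fell and 1 rose at 72 h. Their sum ran from 344 to 350 FPKM in sham mice and from 195 to 252 at 72 h. Abcc9 held the largest part of it, with means of 161.9 FPKM in sham mice and 44.9 at 72 h. The next largest did not fall in this way: Notch3 had 72.4 and 70.9 FPKM, and Pdgfrb 41.7 and 59.6. All 6 macrophage markers rose at 24 h and 72 h, and their sum went from between 195 and 224 FPKM in sham mice to between 3483 and 4603 at 72 h. All 6 pan-leukocyte markers rose at both times as well, with sums of 19.4 to 22.9 FPKM in sham mice and 367.5 to 421.9 at 72 h. At 72 h 5 of 6 fibroblast markers rose and 1 fell, 3 of 5 smooth muscle markers rose and 2 fell, 4 of 6 endothelial markers fell, 4 of 5 neutrophil markers rose, 1 of 3 tested Schwann cell markers fell, 1 of 3 tested atrial markers rose, and the 1 lymphocyte marker tested rose. In bulk tissue, fewer cells of a type and less RNA of a gene per cell cannot be told apart, and the part of these shifts in the changes of the members was not tested.

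Set against the cardiomyocyte markers of the same mouse, no member mean was below its sham value at 72 h. The log2 difference from sham, taken as the member minus the mean of the 8 markers, was 0.56 ± 0.153 for Adrb1, 0.66 ± 0.231 for Adra1a, 0.26 ± 0.342 for Adra1b and 1.05 ± 0.155 for Chrm2 (SD, n = 3). On the log2(FPKM + 1) scale these 4 receptors thus fell less than the markers did on average, although for Adra1b the mice ranged from -0.13 to 0.47. Single markers differed, with log2 fold changes against sham from -1.88 to -0.87. That range held Adra1b (-1.17), and Adrb1 (-0.87) was at its edge. The log2(FPKM + 1) scale understates the falls of low genes, Adra1a above all, but hardly those of the markers. It thus raises the difference of the receptors from the markers. Taken as for the receptors, the log2 difference was 2.64 ± 0.283 for Grk5 and 2.32 ± 0.221 for Rgs2. It was 1.36 ± 0.263 for Rgs4 and 0.84 ± 0.24 for Rgs5. Set against the 7 pericyte markers instead, Rgs5 was at -0.53 ± 0.241 at 24 h and 0.06 ± 0.0254 at 72 h.

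**Figure D4:**
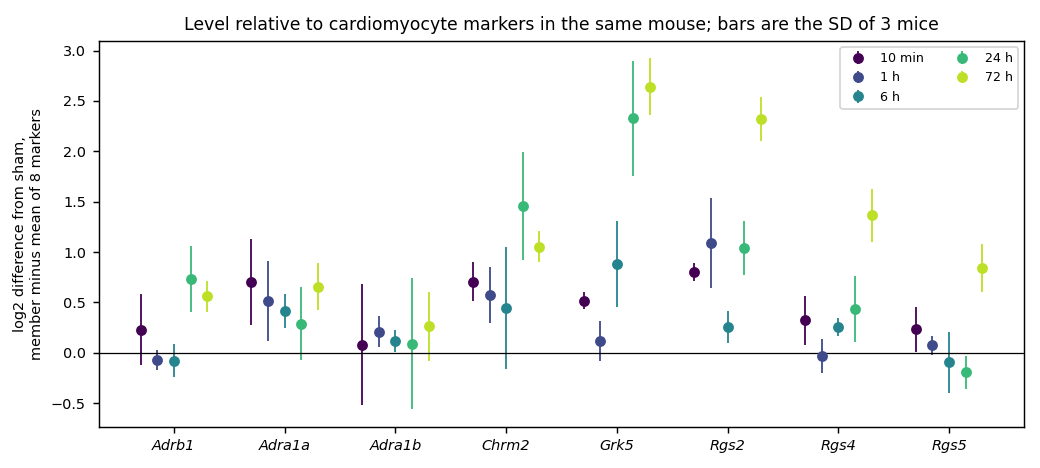
Level of each member minus the mean of 8 cardiomyocyte markers in the same mouse, as a log2 difference from the sham mean (vertical axis), for each member (horizontal axis) and time, with the SD of 3 mice as the bar. At 72 h the means ran from 0.26 for Adra1b to 2.64 for Grk5.

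The wider pathway was described with 11 lists of 105 genes, of which 81 were tested, the members included. In these lists 2 genes rose and 0 fell at 10 min, 0 were called at 1 h, 8 rose and 17 fell at 6 h, 27 rose and 13 fell at 24 h, and 44 rose and 26 fell at 72 h. As shares of the 81 genes, 9.88% rose and 21.0% fell at 6 h, against 11.6% and 16.8% of all genes, 33.3% and 16.0% at 24 h, against 26.2% and 11.4%, and 54.3% and 32.1% at 72 h, against 53.1% and 24.2%. The share that rose at 72 h was thus near that of all genes. The split depends on the scale, with 10 higher and 11 lower at 6 h, 21 and 18 for 24 h, and 34 and 32 for 72 h under median-of-ratios scaling, and 18 and 19 for 24 h and 32 and 37 for 72 h under quantile normalization. The 2 genes at 10 min were Rgs2 and Pde3a, a phosphodiesterase that breaks down cyclic AMP in cardiac muscle. Pde3a had 4.78, 4.74 and 4.60 FPKM in sham mice and 7.97, 11.3 and 9.49 at 10 min (0.88, SE 0.12, adjusted p = 0.0378). Every 10 min mouse was thus above every sham mouse.

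At 6 h the largest falls were those of both subunits of the potassium channel that M2 receptors open, Kcnj5 (-1.45, SE 0.10, adjusted p = 0.000362) and Kcnj3 (-1.12, SE 0.20, adjusted p = 0.00784), and of the phosphodiesterase Pde4a (-1.11, SE 0.16, adjusted p = 0.00383). Kcnj3 had 35.5, 36.3 and 34.0 FPKM in sham mice, 12.2, 13.8 and 22.5 at 6 h, and 14.3, 9.38 and 8.61 at 72 h. Both channel genes were also called below sham at 24 h (-0.78, adjusted p = 0.0299, for Kcnj3 and -0.45, adjusted p = 0.0334, for Kcnj5) and at 72 h (-1.65 for Kcnj3 and -1.50 for Kcnj5). The mean of Kcnj3 was 16.2 FPKM at 6 h and 20.9 at 24 h. The channel genes were thus below sham at 24 h, when Chrm2 was called higher. The largest rises at 6 h were those of Rgs16 (2.16, SE 0.25, adjusted p = 0.00196), of the phosphodiesterase Pde4b (1.57, SE 0.30, adjusted p = 0.0103) and of Grk5. Without the first 6 h mouse these values were -1.39 for Kcnj5, -0.96 for Kcnj3, -1.03 for Pde4a, 1.89 for Rgs16 and 1.21 for Pde4b, each still called.

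Among the RGS genes, 13 of 20 were tested. At 24 h 7 rose and 1 fell, where 26.2% of all genes rose and 11.4% fell, and at 72 h 8 rose and 2 fell, where 53.1% rose and 24.2% fell, so the 72 h counts were near those of all genes. The rises at 72 h were of Rgs10 (2.38), Rgs16 (2.24), Rgs19 (2.15), Rgs1 (1.60), Rgs18 (1.20), Rgs14 (0.95), Rgs2 (0.89) and Rgs17 (0.65), and the falls of Rgs5 (-0.59) and Rgs6 (-0.54), which acts on Gi in cardiac muscle. Rgs1, Rgs10, Rgs14, Rgs18 and Rgs19 are known from blood and immune cells, and all of the macrophage and pan-leukocyte markers rose at the same times, and their part in these rises was not tested. Rgs10 went from 0.869 ± 0.153 FPKM in sham mice to 8.77 ± 1.64 at 72 h, and Rgs16 from 0.772 ± 0.291 to 7.38 ± 1.71. In FPKM these genes stayed far below Rgs2 and Rgs5. Quantile normalization removed the call for Rgs17 at 72 h and those for Rgs1, Rgs10 and Rgs12 at 24 h, and that of Rgs12 was also lost under median-of-ratios scaling. Rgs3 and Rgs12 were not called at 72 h on the deposited scale (both -0.13) but were called lower under both of these scalings.

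**Figure D5:**
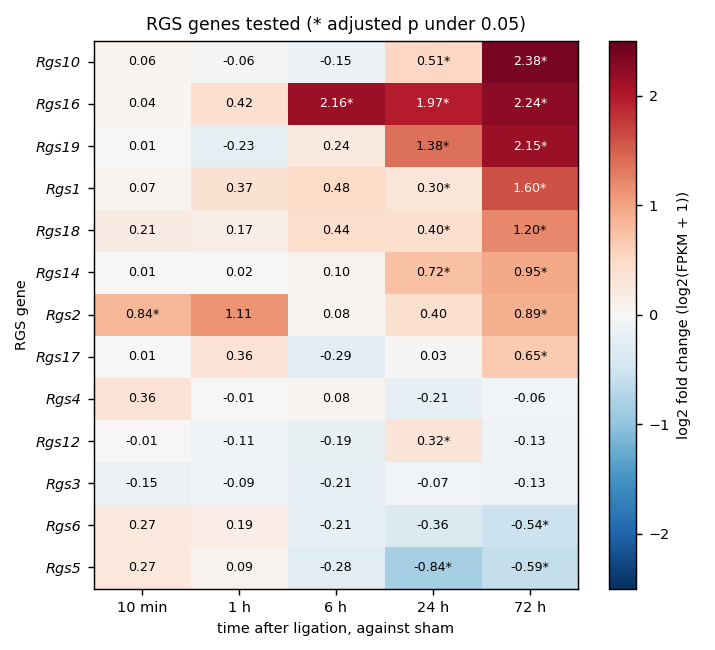
Log2 fold change (colour and number, log2(FPKM + 1)) of the 13 RGS genes tested (rows) at 5 times after ligation against sham (columns), with an asterisk for an adjusted p under 0.05. At 72 h 8 of the genes rose and 2, Rgs5 and Rgs6, fell.

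The counts of the other lists at 72 h are those of the deposited scale, where 53.1% of all genes were higher and 24.2% lower. With median-of-ratios scaling the shares of all genes were 39.3% and 35.7%. Some rises of G protein, protein kinase A, phosphodiesterase and phospholipase C beta genes were lost under that scaling, so these counts do not stand against its shares. Of 6 receptor kinases and arrestins, 5 rose and 0 fell (median 1.07, against 0.29 over all genes), led by Arrb2 (2.55, SE 0.12, adjusted p = 2.18e-07), an arrestin also abundant in leukocytes. Of 7 adenylyl cyclases, the enzymes that make cyclic AMP, 5 fell and 2 rose, the largest rise being that of Adcy7 (2.59, SE 0.11, adjusted p = 1.42e-07), which is known from blood cells. Adcy5 and Adcy6, the cyclases of cardiac muscle, fell (-0.76, adjusted p = 0.000143, and -1.21, adjusted p = 6.04e-07), and they were named here after their values were seen, as was Adrbk1.

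Of 11 G protein alpha subunits, 8 rose and 2 fell, and of 12 beta and gamma subunits, 8 rose and 2 fell. Gng2, a gamma subunit, had the largest rise of all the lists (2.83, SE 0.09, adjusted p = 4.49e-08), and Gnb3, a beta subunit, the largest fall (-2.03, SE 0.12, adjusted p = 1.15e-06). Gnb3 had already fallen at 24 h (-0.99, SE 0.12, adjusted p = 0.00387). Of 6 protein kinase A subunits, 4 rose and 2 fell, of 14 phosphodiesterases, 6 rose and 5 fell, and of 4 phospholipase C beta genes, 3 rose and 1 fell. Quantile normalization reversed the call of Gnao1 and Pde4b at 72 h from higher to lower.

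Genes with the most similar pattern were sought among 11433 others by Pearson correlation of log2(FPKM + 1) over the 18 mice, which share time points and tissue composition, so the coefficients are descriptions only. The closest to Adra1a was Ryr2 (r = 0.925), the calcium release channel of the sarcoplasmic reticulum, followed by Pank1 and Mut. Adra1b was closest to Acsm5 (0.921), Vldlr and Hsdl2, and Adrb1 to Osbp (0.917), Mcat and Large. Chrm2 was closest to Alkbh5 (0.954), Prkar2a, a protein kinase A regulatory subunit, and Rab3gap1. Grk5 was closest to Pdcd6ip (0.959), Bop1 and Msn, and Rgs5 to Aplp2 (0.975), St3gal6 and Slc22a3. Rgs2 had no gene as near, with Rpa1 at 0.738, then Cnnm2 and Fam63b, and Rgs4 was closest to Prrg1 (0.820), Kmt2a and Gpbp1l1. Between members, r was highest for Adra1a and Adra1b (0.861) and lowest for Grk5 and Rgs5 (-0.769).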

How the data were processed

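RNA-seq values of 18 mice, 3 in each of 6 groups, were analysed, with groups taken from the sample titles. Upstream, the authors used cutadapt 1.18 for trimming, HISAT2 2.1.0 for mapping to mm10 and StringTie 1.3.4d for quantification, and the deposited table gives FPKM per gene symbol and mouse without averaging. The annotation and strand setting are not given in the sources used here. The table holds no counts, so depth is known only in relative terms and precision comes from the spread between mice. The headers of the 3 columns of the 1 h group have a letter in place of the digit 1, and the header of 1 of the 6 h columns has a mistyped letter, and each was matched to the title from which it differs by that letter only.

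Log2(FPKM + 1) was compared with limma 3.58.1 in R 4.3.3 (lmFit, eBayes with a variance trend), each time point against sham and successive times from 1 h onwards on their own 6 mice, by two-sided tests. P-values were adjusted (Benjamini-Hochberg) over every gene that reached 1 FPKM in any mouse. The steps were tested on simulated data. Alternatives were a pseudocount of 0.1, other filters, 3 other scalings, all 18 mice in one fit, no variance trend, the replicate number as a block, and leaving out each mouse. The members and gene lists were chosen with earlier results of these data known. Named were all members, the tested receptor and RGS genes, the 3 largest rises and falls of the lists at each time point, and the 3 genes most correlated with each member, leaving out predicted genes. A receptor of the lists is not reported here, though it counts in their totals. Positions are those of GENCODE M21 (mm10). Tables were handled with Python 3.11.15, numpy 2.4.6 and pandas 2.3.3, and plots drawn with matplotlib 3.10.9.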

Additional observations from a re-analysis of the deposited data

Results flagged for a closer look

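The following results differ between times after ligation by a direct limma test of the later against the earlier time point. Rgs2 was lower at 6 h than at 1 h by a log2 fold change of -1.04 (adjusted p = 0.0165), with no overlap between the groups. This call was lost without the first (adjusted p = 0.0574) or the second 1 h mouse (0.065). Grk5 was higher at 24 h than at 6 h by 0.98 (adjusted p = 0.0283), again with no overlap between the groups. This Grk5 call was lost under 8 of 15 alternatives, among them median-of-ratios scaling (0.75, adjusted p = 0.07). From 24 h to 72 h, Adrb1 changed by -0.96 (adjusted p = 0.0006), Chrm2 by -1.19 (adjusted p = 0.00307), Grk5 by -0.48 (adjusted p = 0.0371) and Rgs2 by 0.49 (adjusted p = 0.0304), each with no overlap between the groups. The calls of Adrb1 and Chrm2 held under every alternative tried, whereas those of Grk5 and Rgs2 were lost without any of the 72 h mice in turn, without the second 24 h mouse and under other settings. Groups of 3 mice were too small for an outlier test of single values.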

How the results depend on the processing

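Of 960 log2 fold changes of members under an alternative, 874 kept their direction and side of the threshold, 39 lost and 28 gained a call, 19 uncalled values changed sign and 0 calls changed direction. At 72 h against sham the counts of members stayed at 2 higher and between 4 and 6 lower. At 10 min the member count, 1 higher, became 0 without a filter, in the fit over all 18 mice and without a variance trend, 2 with median-of-ratios scaling, 3 with the mean filter and with quantile normalization, and 0 to 1 with a mouse left out. The lists' count there, 2 higher, became 0 without a filter, in the 18-mouse fit and without a trend, 4 with the mean filter and with quantile normalization, and 0 to 2 with a mouse left out.

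At 1 h the 0 members higher became 1 in the 18-mouse fit and 0 to 2 with a mouse left out, and the 0 genes of the lists became 1 with a pseudocount of 0.1 and in the 18-mouse fit and 0 to 3 with a mouse left out. At 6 h, with a mouse left out, members higher ran from 0 to 2 and genes of the lists from 2 to 12 higher and 7 to 17 lower, with 11 lower under median-of-ratios scaling. The low ends came from leaving out sham mice. At 24 h members higher were 1 with median-of-ratios scaling and quantile normalization and 1 to 2 with a mouse left out, members lower were 2 under both scalings and 1 to 3 with a mouse left out, and the lists ran from 10 to 30 higher and 3 to 19 lower, lowest without a sham mouse. From 1 h to 6 h members higher became 1 with quantile normalization and in the 18-mouse fit, and members lower 0 to 1 with a mouse left out. From 6 h to 24 h members higher became 0 without a filter, under quantile normalization or under median-of-ratios scaling and 0 to 1 with a mouse left out, and members lower became 1 under both scalings and in the 18-mouse fit and 0 to 3 with a mouse left out. From 24 h to 72 h members higher became 0 with median-of-ratios scaling and 0 to 2 with a mouse left out. The cause of these shifts was not tested.

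Replicate numbers did not pair the mice: deviations of same-numbered mice correlated at over 0.1 in 2 of 24 pairs, and every pair did so in 0 comparisons. With the replicate number as a block, members higher were 2 at 10 min (Chrm2 added, adjusted p = 0.0301), 1 from 1 h to 6 h (Grk5, adjusted p = 0.047) and 0 from 6 h to 24 h (Grk5, adjusted p = 0.0882).

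The table gives no read counts, so no counting error is given for low values such as those of Adra1a, Adra1d and several RGS genes, and precision rests on 3 mice a group.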
